A study of Homo sapiens with 24 samples.

Results

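RNA-Seq was performed on spheroids of FaDu and SAS, established cell lines of human head and neck squamous cell carcinoma (HNSCC), to compare transcript levels after hyperthermia (HT), X-ray irradiation (RT) and both (HT + RT). The question addressed here is what heat adds when FaDu spheroids are irradiated. It was put to 6 libraries in 2 groups of 3: FaDu RT spheroids, which received a single dose of 7 Gy and no heat, and FaDu HT + RT spheroids, which were held at 42.5 °C for 60 min and then given the same 7 Gy. RNA was taken 0.5 h after treatment in both groups. The series holds 24 libraries, and no control library entered the comparison. Untreated and heated FaDu spheroids without irradiation, and irradiated SAS spheroids (10 Gy) with and without the same heat, were used to set the result beside other heat effects. The replicates are given in the paper as independent experiments.

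The values are read counts per gene for 57500 Ensembl genes. Total counts were 18149790, 16666024 and 23481395 in RT replicates 1, 2 and 3, and 17221775, 15203484 and 29452514 in HT + RT replicates 1, 2 and 3. Levels are given below as CPM, counts relative to the TMM-scaled size of each library, in the order of replicates 1, 2 and 3. They are not corrected for gene length and are compared only within a gene. Each library is bulk RNA, so fewer cells with a transcript and less of it per cell cannot be told apart. Intervals and floors below cover counting error only.

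The libraries had the marker pattern of the labelled line. Summed over 8 squamous epithelial markers, levels were 9582.8, 9292.8 and 9714.3 CPM after RT and 10581.4, 10823.3 and 10834.4 CPM after HT + RT, and none of the 8 genes was altered. Although the sum was higher, TP63 of this list was lower on the adjusted p alone (log2 fold change -0.4, edgeR adjusted p = 0.0064). SMAD4, a gene lost in FaDu cells, had 0 counts in all 6 libraries. Markers of other cell types were low: leukocyte markers summed to 6.11, 5.8 and 6.64 CPM after RT and 6.21, 4.33 and 5.71 CPM after HT + RT, and endothelial markers to 6.63, 6.92 and 8.13 against 6.1, 6.81 and 6.68 CPM. The fibroblast marker sum of 34.3, 44.6 and 47.6 against 44.7, 56.6 and 65.1 CPM was nearly all COL1A1, with 34.0, 44.5 and 47.1 CPM after RT and 44.5, 56.5 and 64.9 CPM after HT + RT (log2 fold change 0.43, edgeR adjusted p = 0.092). With replicate numbers as a blocking factor its adjusted p was 0.00077, at the same log2 fold change of 0.43, which is under the limit for an altered gene.

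Heat unfolds proteins, and cells answer through heat shock factor 1 (HSF1), which is held inactive by chaperones, is released when these bind unfolded proteins, and then binds heat shock elements in the promoters of chaperone genes. The chaperones made in this way (HSP70, its HSP40 and nucleotide exchange partners, HSP90 and the small heat shock proteins) hold, refold or pass on damaged proteins. A separate and equally fast program, the immediate early genes, is switched on by kinase signaling at promoters where factors such as SRF and CREB are already bound. In HNSCC, heat is studied as a way to make tumors more sensitive to irradiation.

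Of the 15905 genes tested with edgeR's quasi-likelihood test, heat altered 857 (5.39%) in irradiated FaDu spheroids. A gene is called altered here at a Benjamini-Hochberg adjusted p under 0.05 with an absolute log2 fold change over 1. In all, 757 genes (4.76%) were higher after HT + RT than after RT and 100 (0.629%) were lower, so 88.3% of the altered genes were higher. The fitted change was over 4-fold for 364 of the higher genes and for 8 of the lower genes, and over 16-fold for 89 and 0. Of the higher genes, 8 had no count in any RT library, and their fitted values depend on the prior count of the fit. The libraries of the groups did not overlap for 5857 of all tested genes (36.8%). The thresholds themselves favor genes without overlap, and 755 of the 757 higher and all 100 lower genes were of this kind.

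The upward skew belongs to the larger changes. At an adjusted p under 0.05 without a limit on the fold change, 1490 genes (9.37%) were higher and 1574 (9.9%) lower, 3064 in all. With replicate numbers entered as a blocking factor, that total was 4924. The median log2 fold change of all tested genes was 0.01, and 5151 genes (32.4%) had an unadjusted p under 0.05. The number of altered genes ranged from 627 without HT + RT replicate 3 to 1050 without HT + RT replicate 1. Lower genes numbered 64 without HT + RT replicate 3, against 100 with all libraries.

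**Figure D1:**
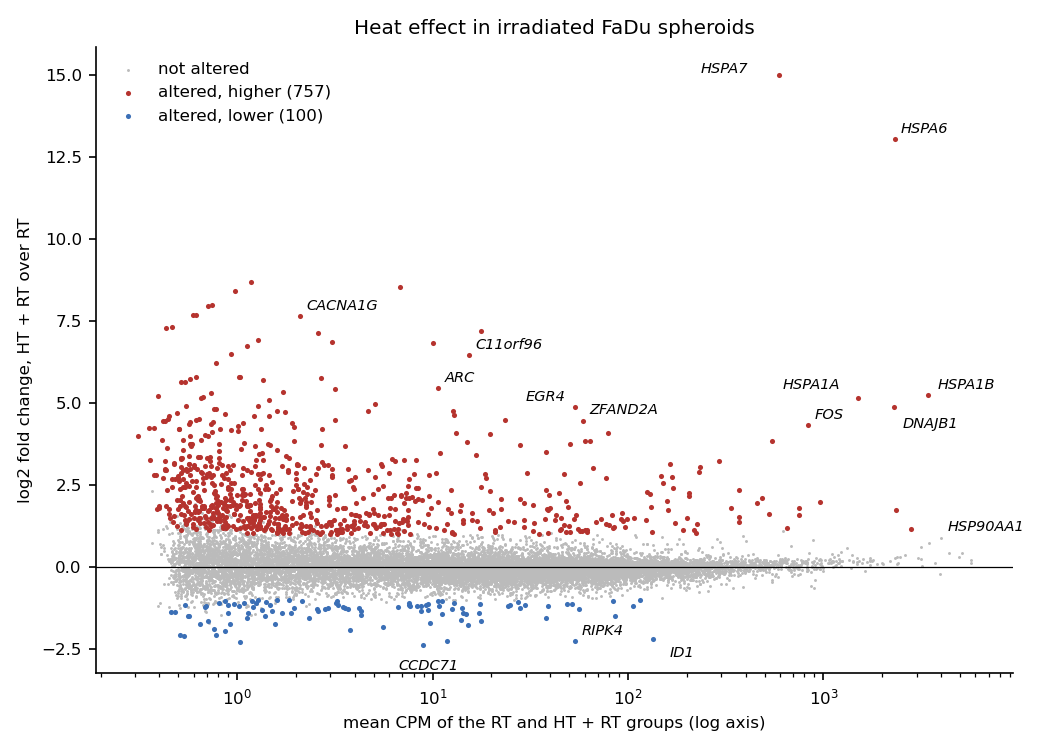
Log2 fold change of HT + RT over RT in FaDu spheroids (vertical axis) against the mean CPM of the 6 libraries (horizontal log axis), 1 point per tested gene. Red points are the 757 altered higher genes, blue points the 100 altered lower genes and grey points all others.

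HSPA6 is the strictly inducible HSP70 that most unstressed cells lack. It had 0.771, 0.745 and 0.234 CPM after RT and 4205.3, 4717.4 and 4982.4 CPM after HT + RT, a log2 fold change of 13.05 (standard error 0.25, adjusted p = 4.2e-08). In counts, 35 reads in the 3 RT libraries stood against 304971 in the 3 HT + RT libraries. HSPA7, a neighboring near-identical gene, had 0, 0 and 0.0782 CPM after RT and 1196.8, 1201.4 and 1168.1 CPM after HT + RT. This is 2 counts against 76775, a ratio of 37798.6 with a 95% counting interval from 10463.4 to 312120.9. Its fitted log2 fold change of 14.99 was 17.59 without RT replicate 3, which holds both counts. Reads of HSPA6 and HSPA7 may be split between them.

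HSPA1A and HSPA1B, the major inducible HSP70 genes, encode the same protein from nearly identical transcripts, so their reads may also be split. HSPA1A had 100.6, 66.5 and 80.2 CPM after RT and 2573.3, 3002.2 and 3150.0 CPM after HT + RT (log2 fold change 5.17, standard error 0.17, adjusted p = 8.4e-07). HSPA1B went from 221.6, 142.4 and 172.5 to 5997.5, 6820.9 and 7135.6 CPM (5.25, standard error 0.17, adjusted p = 8.7e-07). Both had counts in every irradiated library without heat, and the groups were far apart in every library. Their neighbor HSPA1L rose from 2.57, 1.44 and 2.07 to 37.4, 47.8 and 49.4 CPM (4.49, adjusted p = 3.6e-06). Together, HSPA1A, HSPA1B, HSPA6 and DNAJB1 took 0.054%, 0.039% and 0.043% of all counts after RT and 1.7%, 2.05% and 2.11% after HT + RT.

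The median log2 fold change of 13 tested HSP70 and HSP110 genes was 0.77. Of the list, 6 genes were altered, all higher, against 5.39% of all tested genes. Besides HSPA6, HSPA1A, HSPA1B and HSPA1L these were HSPH1 (2.1), an HSP110 that exchanges nucleotide on HSP70, and the constitutive HSPA8 (1.15). HSPA4L (0.77), HSPA2 (0.4), HSPA4 (-0.01) and the microsomal HSPA13 (-0.34) were not altered. BAG3, which links HSP70 to the small heat shock proteins, rose from 133.5, 109.2 and 131.5 to 419.2, 713.2 and 718.4 CPM (2.34, standard error 0.2, adjusted p = 0.00017).

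HSP40 proteins deliver clients to HSP70 and start its ATPase cycle. DNAJB1 had 180.2, 136.0 and 141.4 CPM after RT and 3752.6, 4781.1 and 4801.9 CPM after HT + RT (4.89, standard error 0.15, adjusted p = 8.4e-07), with no overlap of the groups. DNAJA4 rose from 9.56, 9.26 and 8.13 to 91.7, 172.2 and 183.0 CPM (4.09, adjusted p = 4.2e-05), and DNAJB4 from 35.4, 30.6 and 35.3 to 202.4, 331.2 and 344.0 CPM (3.14, adjusted p = 3.2e-05). For both, HT + RT replicate 1 was well below the other HT + RT libraries and far above every RT library. DNAJA1 rose by less, from 226.5, 166.3 and 184.8 to 456.2, 610.0 and 581.9 CPM (1.54, adjusted p = 0.00022). These 4 were the altered genes among 28 tested family members, whose median was 0.03, against 5.39% altered of all tested genes. On the adjusted p alone, 8 members were higher and 3 lower, against 9.37% and 9.9% of all tested genes.

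Small heat shock proteins hold unfolded proteins without using ATP. HSPB1 had 294.7, 338.4 and 395.2 CPM after RT and 1066.0, 1099.4 and 1313.8 CPM after HT + RT (1.79, standard error 0.12, adjusted p = 4.7e-05). HSPB8, the partner of BAG3, rose from 0.925, 1.49 and 1.64 to 7.85, 16.0 and 14.8 CPM (3.26, adjusted p = 0.00036), and CRYAB from 2.06, 2.02 and 2.89 to 7.68, 10.1 and 12 CPM (2.11, adjusted p = 0.00046). All HT + RT values of these 3 genes lay above all RT values, as for 755 of the 757 altered higher genes. HSPB6 (1.46) and HSPB9 (1.97, adjusted p = 0.013) were also higher, and HSPB11 (0.09) was not altered. This makes 5 of 6 tested genes of a list of 10, against 4.76% of all tested genes. HSPB9 had at most 1.65 CPM in any of the 6 libraries. Without HT + RT replicate 3 it no longer passed (1.76, adjusted p = 0.077), nor did HSPB6, which also failed without RT replicate 2 or RT replicate 3, and 3 genes of the list were altered instead of 5.

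HSP90 holds signaling proteins in a form that can be activated, and works with a set of co-chaperones. HSP90AA1, the inducible cytosolic form, had 3009.8, 2662.7 and 2841.1 CPM after RT and 4743.0, 5316.0 and 5531.7 CPM after HT + RT. Its log2 fold change of 0.9 (standard error 0.08, adjusted p = 0.00017) passed on the adjusted p and lay under the fold limit, although the groups did not overlap. The constitutive HSP90AB1 had a log2 fold change of 0.6, and the co-chaperone CHORDC1 one of 0.64 (adjusted p = 0.013). Of 23 tested genes, BAG3 and FKBP4 were altered, against 5.39% of all tested genes, and on the adjusted p alone 8 were higher and 1 lower, against 9.37% and 9.9%. FKBP4, a peptidyl-prolyl isomerase that binds HSP90, rose from 279.3, 239.9 and 273.8 to 806.3, 757.1 and 820.4 CPM (1.62, standard error 0.07, adjusted p = 5e-06).

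None of 14 tested genes of the cytosolic chaperonin TRiC and prefoldin was altered (median 0.07), and none of 18 mitochondrial chaperones and proteases (median -0.02). Of all tested genes, 5.39% were altered, so a count of 0 does not set lists this short apart. On the adjusted p alone, 1 gene of the TRiC list was higher, and of the mitochondrial list 2 were higher and 1 lower. By that measure, 9.37% of all tested genes were higher and 9.9% lower. TCP1, a TRiC subunit, had 312.7, 280.3 and 304.4 CPM after RT and 489.7, 489.0 and 545.0 CPM after HT + RT (0.79, adjusted p = 0.00017), and HSPD1, the mitochondrial HSP60, 717.0, 591.5 and 627.7 against 1009.8, 1146.9 and 1229.9 CPM (0.84, adjusted p = 0.00071). HSPE1, its partner, had 0.47, and the protease subunit CLPX -0.48. Of 5 tested heat shock factor genes, 0 were altered, a list too short to set against the 5.39% of all tested genes. At an unadjusted p under 0.05, edgeR had 2 genes of the TRiC list, 4 of the mitochondrial list and 1 heat shock factor, against 32.4% of all tested genes. DESeq2 altered none in these lists. With replicate numbers as a blocking factor, edgeR's adjusted p was 0.027 for PFDN2 (prefoldin), 0.021 for TRAP1 (mitochondrial) and 0.029 for HSF2, at absolute log2 fold changes under 1. HSF1 had 56.8, 53.2 and 52.8 CPM after RT and 70.6, 53.4 and 58.1 CPM after HT + RT (0.19, adjusted p = 0.23), with HSF2 at -0.33 and HSF4 at 0.44.

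**Figure D2:**
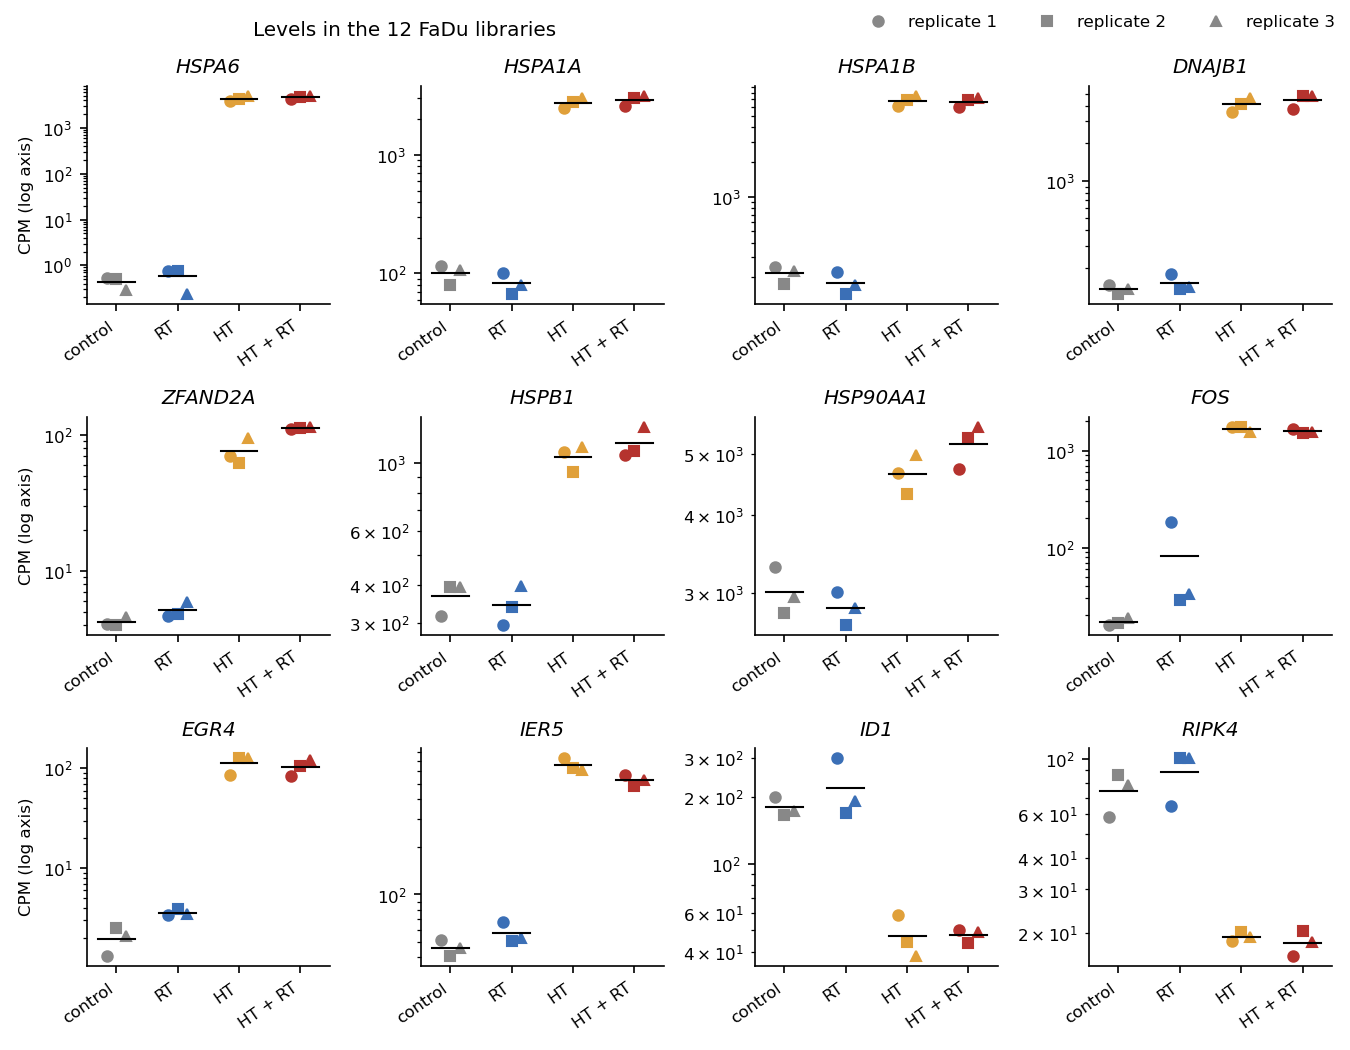
CPM on a log axis of 12 genes in the 12 FaDu libraries, by group (control, RT, HT, HT + RT), with 1 marker shape per replicate number and a bar at the group mean. HSPA6 lies between 0.234 and 0.771 CPM in the RT libraries and between 4205.3 and 4982.4 CPM in the HT + RT libraries, whereas HSP90AA1 goes from at most 3009.8 to at least 4743.0 CPM.

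Promoter sequences of RefSeq (GRCh38.p14), the 250 bases before the listed start, were searched on both strands for the heat shock element. It was searched as 3 alternating units, GAANNTTCNNGAA or TTCNNGAANNTTC, and as an inverted pair of units, GAANNTTC or TTCNNGAA, which every 3-unit match contains. The HSPA6 promoter is shown whole because this inducible gene went from 35 counts without heat to 304971 with it. Its coordinates are chr1:161524290-161524539 on the plus strand, and capitals mark the matches, a lone pair and a 3-unit element of overlapping pairs.

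HSPA6: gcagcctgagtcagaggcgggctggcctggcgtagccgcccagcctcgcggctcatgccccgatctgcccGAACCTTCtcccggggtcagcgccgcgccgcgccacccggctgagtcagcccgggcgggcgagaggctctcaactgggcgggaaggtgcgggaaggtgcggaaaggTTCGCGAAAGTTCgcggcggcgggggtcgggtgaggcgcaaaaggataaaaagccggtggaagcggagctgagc

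Of 17 altered genes of the HSP and co-chaperone lists, 15 were matched to a promoter, and 9 of these (60%) held the inverted pair: DNAJA1, HSPA1A, HSPA1B, HSPA1L, HSPA6, HSPA8, HSPB1, HSPB6 and HSPB8. Among the 53 tested genes of these lists that were not altered, 45 were matched and 3 held it (6.67%): BAG2, CHORDC1 and DNAJB6. The pair was in 945 of 10931 matched promoters of tested genes (8.65%) and in 3208 of all 27305 promoters (11.7%). The 3-unit element was in 2 of the 15 (13.3%, HSPA6 and HSPA8), in 2 of the 45 (4.44%, CHORDC1 and DNAJB6), in 32 tested genes (0.293%) and in 120 of all promoters (0.439%). Over all altered genes the share with the pair was near that of all tested genes, with 38 of 316 matched higher genes (12%) and 3 of 60 matched lower genes (5%). The 3-unit element was in 5 of the 316 (1.58%) and 0 of the 60. A match describes the letters of this window and is neither a bound site nor a cause, and a window without one says nothing about the factor.

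The stretches around matches are set side by side to show the shared letters, for genes that rose, for ID1, which fell, and for TCP1 and CHORDC1, which were not altered. HES1, which rose, and FTL and KRT5, which were not altered, also held the pair. HSPA1B (chr6:31827613-31827660, plus strand) and HSPA1A (chr6:31815417-31815464, plus strand) carry the same pair, and HSPA1L holds the HSPA1A stretch on its own strand (chr6:31815417-31815464, minus strand). DNAJA1 is at chr9:33025055-33025102 (plus), HSPB8 at chr12:119178823-119178870 (plus), HSPB1 at chr7:76302471-76302518 (plus), ZFAND2A at chr7:1160340-1160387 (minus), SERPINH1 at chr11:75562157-75562209 (plus), IER5 at chr1:181088454-181088501 (plus), ID1 at chr20:31605198-31605245 (plus), TCP1 at chr6:159789806-159789852 (minus) and CHORDC1 at chr11:90223067-90223129 (minus), all GRCh38.p14. Capitals mark the pair, in SERPINH1 the 3-unit element, and in CHORDC1 a run of 3 overlapping matches of the 3-unit element.
HSPA1B: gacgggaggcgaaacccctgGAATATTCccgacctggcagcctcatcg
HSPA1A: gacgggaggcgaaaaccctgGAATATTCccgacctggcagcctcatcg
HSPA1L: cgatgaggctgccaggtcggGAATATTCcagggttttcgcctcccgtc
DNAJA1: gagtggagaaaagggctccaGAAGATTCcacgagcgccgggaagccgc
HSPB8: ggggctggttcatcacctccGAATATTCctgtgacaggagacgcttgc
HSPB1: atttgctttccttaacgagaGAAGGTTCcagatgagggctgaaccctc
ZFAND2A: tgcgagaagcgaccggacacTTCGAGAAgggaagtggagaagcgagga
SERPINH1: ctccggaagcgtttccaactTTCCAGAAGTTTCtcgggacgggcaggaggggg
IER5: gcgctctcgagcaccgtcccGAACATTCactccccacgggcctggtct
ID1: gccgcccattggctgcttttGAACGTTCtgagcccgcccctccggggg
TCP1: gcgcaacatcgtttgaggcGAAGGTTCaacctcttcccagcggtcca
CHORDC1: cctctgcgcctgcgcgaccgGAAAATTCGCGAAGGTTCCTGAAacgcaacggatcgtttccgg

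Damaged proteins that are not refolded are tagged with ubiquitin and broken down by the proteasome. Of 41 tested genes of these steps, 3 were altered, all higher, against 5.39% of all tested genes. ZFAND2A, a zinc finger protein that binds the proteasome under stress, had 4.68, 4.84 and 5.86 CPM after RT and 109.5, 112.2 and 114.3 CPM after HT + RT (4.47, standard error 0.09, adjusted p = 5.2e-08). Its replicates differed little within each group, and the groups were far apart. UBB, which encodes ubiquitin, rose as well, from 410.3, 398.5 and 388.2 to 874.8, 904.3 and 913.0 CPM (1.2, adjusted p = 7.8e-06). The list median was 0.05, and the proteasome subunit PSMD12 had -0.4. On the adjusted p alone, 3 genes of the list were higher and 3 lower, against 9.37% and 9.9% of all tested genes.

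The endoplasmic reticulum folds secreted proteins and has a stress response of its own. Of 24 tested genes of its chaperones and unfolded protein response, 2 were altered, and on the adjusted p alone 5 were higher and 5 lower. Of all tested genes, 5.39% were altered, and 9.37% were higher and 9.9% lower on the adjusted p alone. SERPINH1 (HSP47), the collagen chaperone, rose from 206.9, 170.8 and 192.0 to 685.8, 715.3 and 763.9 CPM (1.95, standard error 0.08, adjusted p = 3.6e-06). DERL3, which helps to export misfolded proteins, rose from 0.0514, 0.106 and 0.0391 to 0.791, 1.73 and 1.78 CPM (4.44, adjusted p = 0.0012), resting on 4 counts against 97. The main chaperone HSPA5 (0.06), the sensor ERN1 (0.31), XBP1 (-0.41), SEL1L (-0.63) and DNAJB9 (0.56) were not altered.

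In the integrated stress response, phosphorylated eIF2 slows translation and favors ATF4. Of 20 tested genes of this response, 3 were altered, all higher, against 5.39% of all tested genes. ATF3 rose from 8.63, 6.44 and 6.17 to 64.2, 106.9 and 110.0 CPM (3.76, standard error 0.23, adjusted p = 3.2e-05). PPP1R15A (GADD34), which brings a phosphatase to eIF2, rose from 58.7, 35.8 and 39.3 to 291.5, 303.4 and 282.5 CPM (2.74, adjusted p = 2.9e-05), and CHAC1 from 4.68, 2.87 and 2.89 to 9.94, 11.9 and 12.3 CPM (1.75, adjusted p = 0.00086). ATF4 (-0.02), DDIT3 (0.6) and SLC7A11 (-0.64) were not altered. The list median was 0.08, and on the adjusted p alone 5 genes were higher and 2 lower, against 9.37% and 9.9% of all tested genes.

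With all libraries, the immediate early factors formed the list with the largest share of altered genes after the small heat shock proteins. Of 16 tested EGR, AP-1 and related genes, 13 were higher (median 2.8), against 4.76% of all tested genes. When tested against the fold limit (glmTreat), 10 of the list were higher, against 334 of all 15905 tested genes. The order of the lists rests on few genes. Without HT + RT replicate 3, HSPB6 and HSPB9 no longer passed, nor did EGR1, JUN and FOSL1. EGR4, a zinc finger factor, had 3.39, 3.89 and 3.48 CPM after RT and 84.7, 105.2 and 121.9 CPM after HT + RT (4.89, standard error 0.16, adjusted p = 8.4e-07). ARC, an immediate early gene known from neurons, had 0.565, 0.266 and 0.586 CPM after RT and 19.1, 19.1 and 24.4 CPM after HT + RT (5.45, standard error 0.23, adjusted p = 3.6e-06). EGR3 rose from 9.61, 8.89 and 6.8 to 85.6, 131.4 and 140.5 CPM (3.86, standard error 0.21, adjusted p = 1.8e-05). For these 3 genes every heated library lay far above every RT library, and 755 of the 757 altered higher genes had no overlap. Besides FOS, described next, the other higher genes were EGR2 (3.86), NR4A1 (3.85), NR4A3 (3.5), NR4A2 (2.87), FOSB (2.73), EGR1 (1.99), JUN (1.8), JUND (1.4) and FOSL1 (1.05), while JUNB (0.57), FOSL2 (0.52) and SRF itself (-0.02) were not altered. Without RT replicate 1, EGR1 had 2.88 and JUN 2.59. EGR1 no longer passed without RT replicate 3 or without HT + RT replicate 3, and JUN and FOSL1 without either of these or RT replicate 2.

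FOS differed between replicates in the irradiated spheroids without heat. It had 182.8, 28.8 and 32.9 CPM after RT and 1689.0, 1520.1 and 1571.5 CPM after HT + RT (4.32, standard error 0.68, adjusted p = 0.0033). RT replicate 1 was the high library, and the log2 fold change without it was 5.71. DUSP1, a phosphatase that shuts off p38 and JNK, had the same pattern, with 96.4, 25 and 31.4 CPM after RT and 375.0, 420.0 and 450.6 CPM after HT + RT (3.06, standard error 0.45, adjusted p = 0.0024), and 3.9 without RT replicate 1. In controls, FOS had 15.8, 16.7 and 18.8 CPM and DUSP1 11.9, 11.9 and 14.8 CPM, below every RT library. After HT alone, FOS had 1755.7, 1739.2 and 1562.7 CPM, a range that overlapped that of HT + RT.

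Among 26 other immediate early and feedback genes, 13 were altered, all higher (median 0.93), against 5.39% of all tested genes. When tested against the fold limit (glmTreat), 7 of the list were higher, against 334 of all 15905 tested genes. IER5, which is known as a target and partner of HSF1, rose from 66.7, 51.2 and 52.8 to 568.2, 485.9 and 525.6 CPM (3.24, standard error 0.11, adjusted p = 1.4e-06). MAFF, a small MAF factor, rose from 57.9, 55 and 53 to 262.4, 497.8 and 459.2 CPM (2.91, adjusted p = 9.3e-05), with HT + RT replicate 1 lowest of the heated libraries. GADD45B, a stress sensor upstream of p38, rose from 5.75, 3.99 and 3.99 to 33.0, 29.1 and 34.7 CPM (2.85, adjusted p = 1.5e-05). CYR61, a matricellular protein, rose from 55.5, 37.9 and 38.5 to 248.7, 266.8 and 257.8 CPM (2.58, adjusted p = 1.7e-05). No library of either group overlapped the other group for these 4 genes, as for 755 of the 757 altered higher genes and 36.8% of all tested genes. The remaining altered members were CSRNP1 (2.56), GADD45G (1.89), KLF2 (1.79), BTG2 (1.78), ZFP36 (1.73), RHOB (1.64), MCL1 (1.58), CTGF (1.46) and ZFP36L1 (1.13), while KLF6 (0.73), MYC (0.58), IER2 (0.47) and IER3 (0.45) were not altered. KLF2 had 2.56 without RT replicate 1 and no longer passed without RT replicate 3 or without HT + RT replicate 3.

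MAP kinase phosphatases and SPRY proteins switch off the kinases that turn on immediate early genes. Of 14 tested, 5 were altered, against 5.39% of all tested genes. All 5 were higher: DUSP1 and 4 more. DUSP2 rose from 6.88, 2.18 and 3.05 to 44.1, 55.0 and 56.1 CPM (3.72, standard error 0.32, adjusted p = 0.00017), DUSP8 from 0.822, 1.54 and 1.21 to 7.74, 10.9 and 11 CPM (3.08, adjusted p = 0.00014) and DUSP5 from 68.8, 52.4 and 54.9 to 163.9, 221.7 and 227.0 CPM (1.83, adjusted p = 0.00013). SPRY4 had a log2 fold change of 1.45 and no longer passed without RT replicate 2 or without RT replicate 3. The ERK phosphatase DUSP6 (-1) and SPRY1 (-0.95) had negative log2 fold changes at or near the fold limit and were not altered, and the list median was 0.4. On the adjusted p alone, 6 genes of the list were higher and 1 lower, against 9.37% and 9.9% of all tested genes. Without the expression filter, 1 gene of the list was altered lower, against 136 of 34057 tested genes. When tested against the fold limit (glmTreat), 4 were higher, against 334 of all 15905 tested genes.

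Promoters of the immediate early, feedback and phosphatase lists were searched for the cyclic AMP response element (CRE), TGACGTCA, which reads the same on both strands, and for the CArG box, the element of SRF. Of 31 higher genes, 23 were matched, and 4 (17.4%) held a CRE: DUSP1, DUSP8, JUND and MAFF. Of 25 tested genes not altered, 19 were matched and 0 held it. The share was 310 of 10931 (2.84%) for tested genes and 482 of 27305 (1.77%) for all promoters. Over all altered genes it was 13 of 316 matched higher genes (4.11%) and 2 of 60 matched lower genes (3.33%). A CArG box was in 1 of the 23 (4.35%, EGR1) and in 1 of the 19 (5.26%, SRF), against 1.04% of tested genes and 1.14% of all promoters. The heat shock pair was in IER5 and JUN (8.7%) and, of the genes not altered, in IER5L (5.26%). The CRE stretches of MAFF (chr22:38201920-38201967, plus strand), DUSP1 (chr5:172771293-172771340, minus strand), DUSP8 (chr11:1572318-1572409, minus strand, with 2 elements) and, from the integrated stress response, PPP1R15A (chr19:48872343-48872390, plus strand) are shown with the element in capitals, all GRCh38.p14. Beside these genes, which rose, stand DDX28 (chr16:68023233-68023262, minus strand), which fell, and TRAP1 (chr16:3717591-3717638, minus strand), which was not altered.
MAFF: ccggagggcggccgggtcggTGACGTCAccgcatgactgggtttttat
DUSP1: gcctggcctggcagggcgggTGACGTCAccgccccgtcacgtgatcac
DUSP8: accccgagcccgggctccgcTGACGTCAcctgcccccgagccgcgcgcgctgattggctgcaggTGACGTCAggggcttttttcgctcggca
PPP1R15A: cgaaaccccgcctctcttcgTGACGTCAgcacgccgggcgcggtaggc
DDX28: gcgaggtcgcggcgcgtccgTGACGTCAct
TRAP1: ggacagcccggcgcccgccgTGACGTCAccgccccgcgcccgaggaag

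Of 26 tested genes for cytokines, chemokines and NF-kappaB feedback, 7 were altered, all higher (median 0.44), against 5.39% of all tested genes. With 10 counts required in every library, 4 of the list were higher, against 386 of 14349 tested genes. IL6 rose from 3.7, 0.958 and 2.11 to 32.8, 36.0 and 42.9 CPM (4.07, standard error 0.31, adjusted p = 9.9e-05), and CXCL8, a neutrophil attractant, from 70.6, 71.9 and 72.8 to 252.7, 370.4 and 385.2 CPM (2.26, standard error 0.15, adjusted p = 4.4e-05). Both were higher in every heated library, as were 755 of the 757 altered higher genes. CCL26, an eosinophil attractant, rose from 0.0514, 0.266 and 0.195 to 3.16, 3.9 and 3.87 CPM (4.39, adjusted p = 0.00016), and TNF from 0.257, 0.16 and 0.117 to 1.58, 1.18 and 0.872 CPM (2.76, adjusted p = 0.0033). IL11 (2.24), CCL20 (2.17) and TNFAIP3 (1.45) were also higher, whereas the NF-kappaB inhibitors NFKBIA (0.43) and NFKBIZ (0.63) were not altered.

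The ID genes encode inhibitors of basic helix-loop-helix factors and are targets of BMP signaling, and they moved in opposite directions. ID1 had 300.3, 170.2 and 191.5 CPM after RT and 50, 44 and 49.4 CPM after HT + RT (-2.18, standard error 0.19, adjusted p = 0.00022), a fall in every library. ID2 had 0.411, 0.16 and 0 CPM after RT and 2.03, 2.54 and 2.29 CPM after HT + RT (3.69, standard error 0.6, adjusted p = 0.0039). Its log2 fold change was 4.97 without RT replicate 1 and 2.99 without RT replicate 3. ID3 (0.62) was not altered. In the BMP and TGF-beta list, 6 of 14 tested genes were higher and 1, ID1, was lower (median 0.83). Of all tested genes, 4.76% were higher and 0.629% lower. With 10 counts required in every library, 4 of the list were higher, against 386 of 14349 tested genes. The decoy receptor BAMBI rose from 0.822, 0.639 and 0.703 to 3.9, 3.47 and 4.17 CPM (2.44, adjusted p = 0.0002), and the ligand BMP4 from 0.154, 0.319 and 0.313 to 1.36, 1.11 and 1.32 CPM (2.26, adjusted p = 0.0028). MSX1 (1.59), SMAD7 (1.38) and MSX2 (1.31) made up the rest, of which SMAD7 no longer passed without RT replicate 3 or without HT + RT replicate 3.

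Of 15 tested genes of the Notch pathway (median 0.07), 3 were higher and 1 lower, against 4.76% and 0.629% of all tested genes. When tested against the fold limit (glmTreat), 1 was higher and 0 lower. The ligand DLL4 rose from 0.154, 0.16 and 0.313 to 1.3, 0.991 and 1.52 CPM (2.57, adjusted p = 0.0025). The Notch targets HES1, from 51.0, 46.9 and 49.5 to 91.4, 154.0 and 158.1 CPM (1.48, adjusted p = 0.0011), and NRARP, from 119.4, 132.6 and 139.4 to 248.7, 335.4 and 374.2 CPM (1.32, adjusted p = 0.00051), rose as well. LFNG, a glycosyltransferase that modifies Notch, fell from 10.8, 17.5 and 16.5 to 4.8, 5.2 and 3.81 CPM (-1.69, adjusted p = 0.0011). The groups were apart in every library for all 4 genes, as for 755 of the 757 altered higher and all 100 altered lower genes. HEY1 (1.09) was over the fold limit without passing on the adjusted p.

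Of 27 tested p53 targets, 1 was altered (median -0.15), 4 were higher and 5 lower on the adjusted p alone, and 16 had an unadjusted p under 0.05. Of all 15905 tested genes, 857 were altered, 1490 were higher and 1574 lower on the adjusted p alone, and 5151 had an unadjusted p under 0.05. The altered p53 target was BTG2, also an immediate early gene, which rose from 9.81, 9.9 and 10.9 to 28.4, 41.1 and 34.1 CPM (1.78, standard error 0.14, adjusted p = 0.00013). PMAIP1 (0.88, adjusted p = 0.0088) passed both limits without RT replicate 1 (1.12), which makes 2 genes of the list. CDKN1A (0.4), MDM2 (-0.24) and SESN1 (-0.78) were not altered. Of 14 NRF2 targets of the oxidative stress response, 0 were altered (median 0.07), with HMOX1 at 0.24, FTL at 0.28 and GCLC at -0.44. Of 23 interferon-stimulated genes, 0 were altered (median 0), with IFIT5 at -0.84, IFIT1 at -0.65, IFIT3 at -0.61 and IRF9 at 0.54. These counts of 0 are from edgeR's adjusted test. On the adjusted p alone, 1 NRF2 target was higher and 1 lower, and 1 interferon-stimulated gene was higher and 4 lower. With replicate numbers as a blocking factor, the NRF2 targets GCLC (edgeR adjusted p = 0.00048) and TKT (0.0012) passed as well, at absolute log2 fold changes under 1. At an unadjusted p under 0.05 there were 6 NRF2 targets and 8 interferon-stimulated genes, and DESeq2 also altered none of either list. Among 21 splicing regulators, 1 was altered, 5 were higher and 3 lower on the adjusted p alone, and 12 had an unadjusted p under 0.05. The altered gene, the kinase CLK1, which phosphorylates SR proteins, rose from 14.6, 13.7 and 14.2 to 45.4, 69.6 and 78.1 CPM (2.21, standard error 0.18, adjusted p = 0.00016). CLK3 (0.75), CLK4 (0.58) and SRSF5 (-0.52) were not altered.

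**Figure D3:**
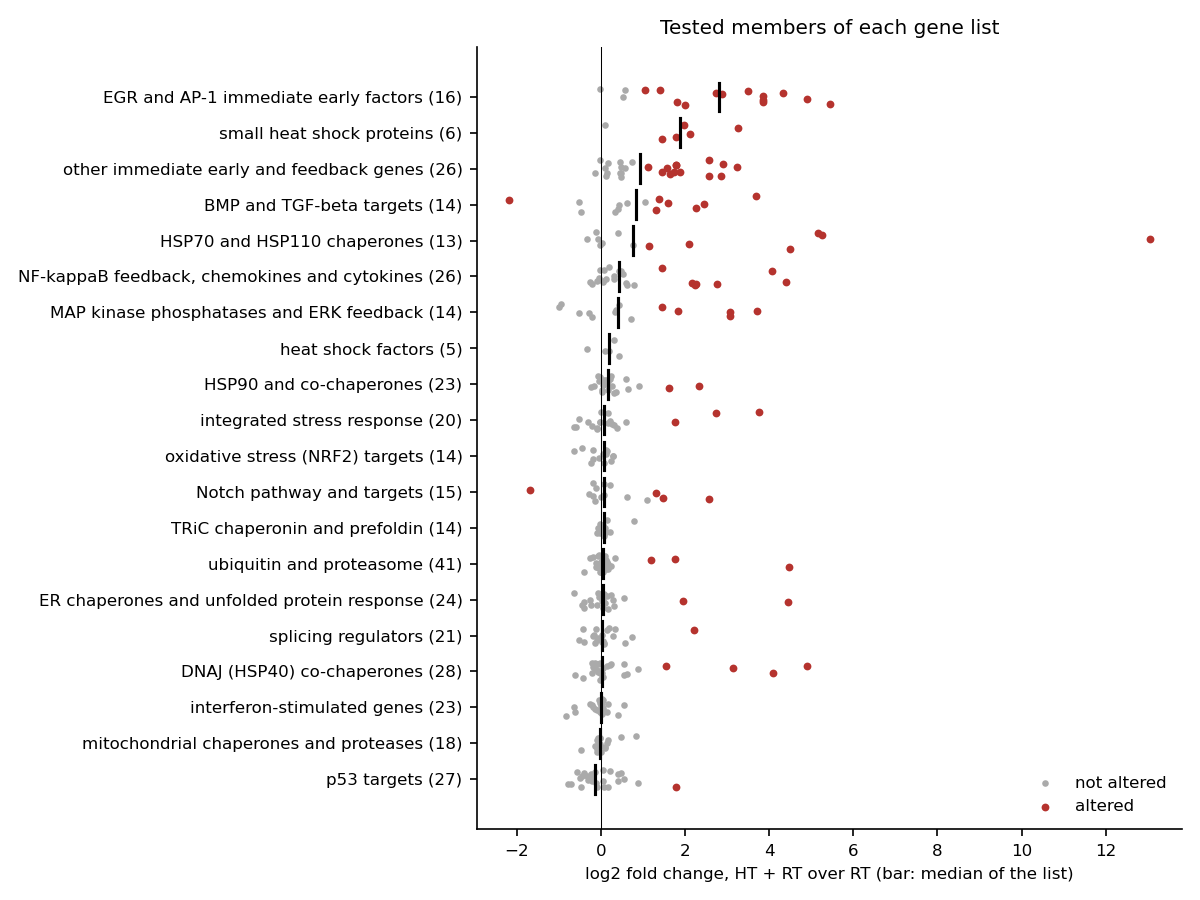
Log2 fold change of HT + RT over RT for every tested member of the 20 gene lists, 1 point per gene, with altered genes in red and a bar at the list median. The medians of the EGR and AP-1 list (2.8) and the small heat shock proteins (1.88) lie farthest from the median of all tested genes (0.01).

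Several of the highest changes were in genes outside these lists. CACNA1G, a T-type calcium channel, had 0, 0 and 0.0391 CPM after RT and 4.24, 3.59 and 4.75 CPM after HT + RT, 1 count against 280 and a ratio of 275.7 (95% counting interval 49.1 to 10928.1). Its fitted log2 fold change was 7.65, and 9.45 without RT replicate 3. RBFOX3, a splicing factor of neurons, rose from 0.257, 0.213 and 0.0782 to 24.3, 15.3 and 20.4 CPM (6.84, standard error 0.32, adjusted p = 7.1e-06), and C11orf96 from 0.0514, 0.532 and 0.43 to 20.9, 30.1 and 39.9 CPM (6.47, standard error 0.41, adjusted p = 3.8e-05). All 3 genes were near 0 in every irradiated library without heat. ADAMTS1, a secreted protease, was not among the 12 largest rises and was named for its interaction of heat with spheroid type. It rose from 0.976, 0.639 and 0.508 to 4.46, 5.88 and 5.94 CPM (2.99, adjusted p = 0.00022).

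Others among the highest lay in or against protein-coding genes. The strand setting used in counting is not given in the sources used here, so reads of overlapping genes cannot be assigned with certainty. AC005841.1, an antisense gene that overlaps FKBP4, had 0.0514, 0.0532 and 0 CPM after RT and 14.9, 12.8 and 13.1 CPM after HT + RT, 2 counts against 876 (ratio 431.3, 95% counting interval 119.0 to 3566.8). Its fitted log2 fold change of 8.54 was 7.88 without RT replicate 3. AC025259.3, a lincRNA gene that overlaps NR4A1 on the opposite strand, rose from 0.462, 0.16 and 0.117 to 40.5, 30.3 and 34.6 CPM (7.21, standard error 0.28, adjusted p = 2.2e-06), and 7.99 without RT replicate 1. AC010271.1, opposite SERTAD3 (1.6), rose from 0.154, 0.106 and 0.156 to 10.4, 4.4 and 3.87 CPM (5.42, standard error 0.57, adjusted p = 0.00048), with HT + RT replicate 1 the high library. In these 3 pairs the overlapped protein-coding gene was higher as well.

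Small RNA genes inside host genes were also among the highest. SNORA20, inside TCP1 (0.79, not altered), rose from 0.103, 0.0532 and 0.117 to 4.97, 5.82 and 5.1 CPM (5.76, standard error 0.3, adjusted p = 1.3e-05). RF00404, a small nucleolar RNA gene inside AHSA1 (0.3, not altered), had 0, 0.106 and 0.0391 CPM after RT and 5.87, 6.13 and 6.2 CPM after HT + RT. This is 3 counts against 395, a ratio of 129.6 (95% counting interval 44.0 to 631.4), with a fitted log2 fold change of 6.87, and 7.8 without RT replicate 2. RF02271 (ENSG00000274051), inside JMJD6 (1.32, higher), had 0, 0.106 and 0 CPM after RT and 4.74, 4.89 and 5.81 CPM after HT + RT. Its 2 counts against 343 give a ratio of 168.9 (95% counting interval 46.4 to 1400.0). The fitted log2 fold change of 7.14 was 9.84 without RT replicate 2 and 6.49 without RT replicate 3.

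Genes that do not code for protein made up a large part of the up-regulated set. Protein-coding genes were 398 of the 757 higher genes (52.6%), against 83.1% of the tested genes. Antisense genes were 139 (18.4%), against 5.43%, and lincRNA genes 49 (6.47%), against 3.79%. Seen by type, 16.1% of tested antisense genes, 3.01% of tested protein-coding genes, 14 of 37 small nucleolar and Cajal body RNA genes (37.8%) and 5 of 17 mitochondrial tRNA genes (29.4%) were higher. Genes near 0 after RT can enter the tested set through the heated libraries alone, so these shares depend on the filter. With 10 counts required in every library, 461 genes of all types were altered, and shares by type are not given for that filter. The same limit holds for the positions described next. The 100 lower genes held 63 protein-coding and 15 antisense genes.

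The position of these genes was compared with that of protein-coding genes. Of 354 higher genes annotated as not coding for protein, 260 (73.4%) overlapped a protein-coding gene, against 1184 of 2277 such genes that were tested and not higher (52%). A higher protein-coding gene was overlapped by 26 (7.34%), against 21 (0.922%), and lay within 10 kb of 46 (13.0%), against 46 (2.02%). Of the 139 higher antisense genes, 134 (96.4%) overlapped a protein-coding gene and 14 (10.1%) a higher one, against 636 (87.8%) and 14 (1.93%) of 724 antisense genes not higher. Most higher antisense genes thus lay across a protein-coding gene that was not itself altered upward.

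Altered protein-coding genes were short and had few exons. The largest number of exons in any annotated transcript had a median of 5 for higher and 5 for lower genes, against 10 for all tested protein-coding genes. Single-exon genes were 38 of the higher (9.55%) and 7 of the lower genes (11.1%), against 241 of all tested (1.82%). The median span was 9.09 kb for higher and 12.1 kb for lower genes, against 32.9 kb. These shares are descriptions, since genes are not independent replicates. Like the shares by gene type, the values of the higher genes depend on the filter, and they were not computed for the stricter one.

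The lower genes changed by less. CCDC71, a coiled-coil protein, had 13.8, 13.4 and 17.8 CPM after RT and 3.45, 2.66 and 2.49 CPM after HT + RT (-2.37, standard error 0.18, adjusted p = 9e-05). RIPK4, a kinase needed for keratinocyte differentiation, fell from 64.7, 100.5 and 101.0 to 16.2, 20.4 and 18.4 CPM (-2.25, standard error 0.18, adjusted p = 0.00013). WNT9A, a Wnt ligand, fell from 24.3, 22.2 and 24.0 to 7.4, 5.88 and 7.07 CPM (-1.76, adjusted p = 3.2e-05). RT replicate 1 was the low library of its group for RIPK4, and the naming rule took only genes whose groups did not overlap. SNORD104, a small nucleolar RNA inside SNHG25 (-0.8), fell from 19.2, 21.0 and 19.0 to 3.78, 3.47 and 4.68 CPM (-2.26, adjusted p = 2.8e-05).

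The 12 lowest also held genes with other roles. TADA1, a subunit of the SAGA coactivator, fell from 20, 22 and 21.6 to 7.34, 6.38 and 6.78 CPM (-1.61, adjusted p = 3.7e-05), and GEMIN4, of the SMN complex that builds spliceosomal particles, from 52.9, 56.0 and 62.0 to 22.3, 17.1 and 18.1 CPM (-1.54, adjusted p = 6.1e-05). DDX28, a mitochondrial RNA helicase, fell from 25.5, 28.2 and 26.7 to 6.66, 9.22 and 9.3 CPM (-1.64, adjusted p = 0.00015), and MIEF2, a mitochondrial fission factor, from 8.37, 7.51 and 10.2 to 3.16, 2.23 and 2.0 CPM (-1.81, adjusted p = 0.00076). AC022400.7 fell from 4.57, 7.67 and 5.78 to 1.19, 2.04 and 1.45 CPM (-1.93, adjusted p = 0.0019), and ST7-AS1, antisense to ST7 (0.06), from 2.88, 4.58 and 3.13 to 0.96, 1.11 and 1.36 CPM (-1.56, adjusted p = 0.0046).

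Whether irradiation changes the heat effect was addressed by comparing the result with heat alone, FaDu HT against control, which shares no library with it. There, 789 of 15879 genes (4.97%) were altered, 682 higher (4.29%) and 107 lower (0.674%). In common were 562 genes, 65.6% of those altered in irradiated and 71.2% of those altered in unirradiated spheroids, and all 562 moved in the same direction. Of 764 genes altered in irradiated spheroids and also tested in unirradiated ones, 761 had the same sign. Over 15546 genes tested in both, Pearson's r between the log2 fold changes was 0.9, a description across genes, which are not independent replicates.

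For the heat shock response, values with and without irradiation lay closer for some genes than for others. In unirradiated spheroids the log2 fold change was 13.31 for HSPA6, 5.0 for HSPA1B, 4.8 for HSPA1A, 4.96 for DNAJB1 and 4.18 for ZFAND2A, and among the lower genes -2.24 for CCDC71 and -1.91 for ID1. It was 13.59 for HSPA7, 2.64 for HSPB8, 1.57 for BAG3, 0.95 for HSPB9 (adjusted p = 0.069) and 0.19 for CHORDC1, each below its value in irradiated spheroids. For HSPA7 the lower value rests on very few unheated reads, 6 in all control libraries against 2 in all RT libraries. The mean HSPA7 level of heated spheroids was no lower without irradiation (1234.6 CPM) than with it (1188.8 CPM). Several immediate early genes had a larger change without irradiation, 7.78 for ARC, 6.64 for FOS, 5.85 for EGR4 and 4.73 for DUSP1, from lower levels in control than in RT libraries. CLK1 had 1.12 and ST7-AS1 -0.21 (adjusted p = 0.73) without irradiation. The list median was 3.75 for the EGR and AP-1 genes and 1.62 for the other immediate early genes, against 2.8 and 0.93 with irradiation, and 0.58 against 0.77 for the HSP70 and HSP110 genes.

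The interaction of heat with irradiation, fitted on the 12 FaDu libraries with edgeR, altered 0 of 16793 genes (0%). At an unadjusted p under 0.05 it had 541 genes (3.22%), and the lowest adjusted p was 0.64. DESeq2 altered 1 gene, and without RT replicate 1 edgeR altered 1. The interaction was -2.34 on the log2 scale for ARC, -2.33 for FOS, -1.68 for DUSP1, -1.07 for CYR61, -0.76 for PPP1R15A, -0.62 for IER5, -0.27 for HSPA6 and 1.09 for CLK1, none past the adjusted threshold without a block. Without RT replicate 1, in which FOS and DUSP1 were high, it was -0.93 for FOS and -0.84 for DUSP1. With replicate numbers as a blocking factor, 10 genes passed on the adjusted p, among them IER5 (-0.62, adjusted p = 0.0022), and 2 of the 10 were altered, CYR61 (-1.07, adjusted p = 0.0068) and IER2 (-1.51, adjusted p = 0.02). Same-numbered libraries deviated together, with a correlation over 0.1 across genes, in 17 of 18 pairs (0.06 to 0.54), and so did 11 of 36 differently numbered pairs (-0.43 to 0.28). These are deviations from the group mean, so positive correlations of same-numbered pairs push those of other pairs down. Of the 857 genes altered by heat in irradiated spheroids, 100 had an unadjusted p under 0.05 in the interaction, whose median among the 857 was 0.07. A p that misses the threshold does not show that the effects are equal.

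**Figure D4:**
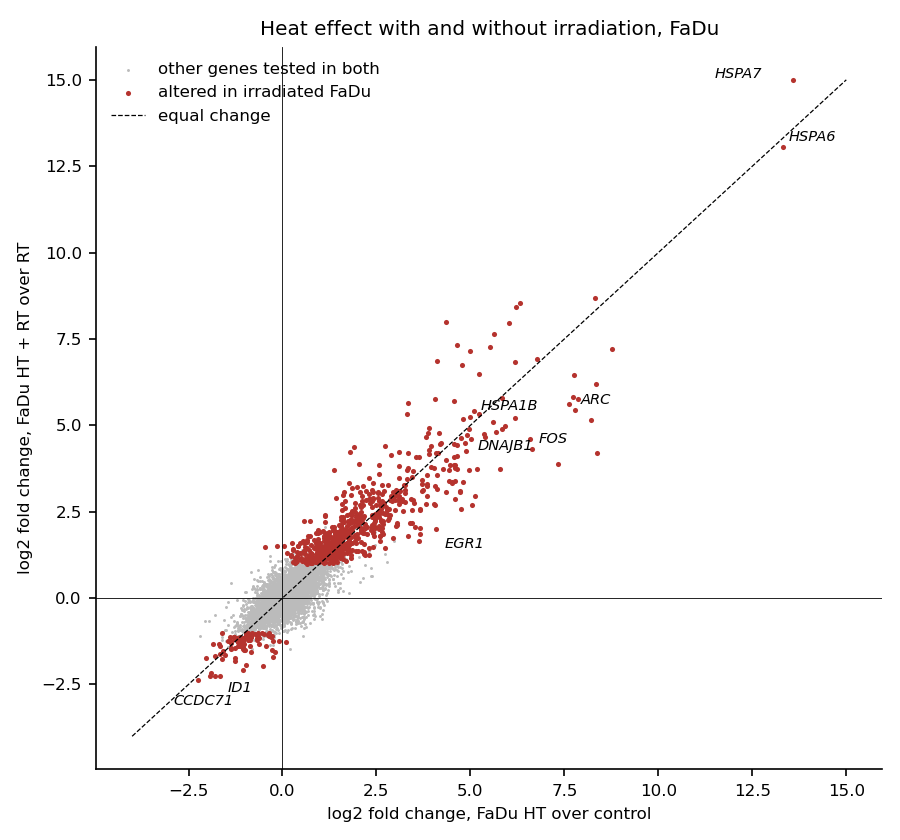
Log2 fold change of HT + RT over RT (vertical axis) against that of HT over control (horizontal axis) in FaDu spheroids, 1 point per gene tested in both, with genes altered in irradiated spheroids in red and a line of equal change. HSPA6 lies at 13.31 and 13.05, and ARC (7.78 and 5.45) and FOS (6.64 and 4.32, or 5.71 without RT replicate 1) lie below the line.

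Irradiated SAS spheroids received the same heat but 10 Gy, so cell line and dose cannot be told apart in this comparison. Heat altered 999 of 15125 genes there (6.6%), 864 higher (5.71%) and 135 lower (0.893%). In common with FaDu were 289 genes, 33.7% of those altered in FaDu and 28.9% of those altered in SAS, of which 284 moved in the same direction. Of 598 FaDu genes tested in SAS, 521 had the same sign, and r over 13897 genes was 0.6. The interaction of heat with spheroid type altered 583 of 17376 genes (3.36%), 232 with a higher heat effect in FaDu (1.34%) and 351 with a lower one (2.02%). On the adjusted p alone these were 424 (2.44%) and 894 (5.15%), and 3396 genes (19.5%) had an unadjusted p under 0.05. Among the 857 genes altered in irradiated FaDu, 224 were altered in the interaction.

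The interaction with spheroid type altered 8 of 16 EGR and AP-1 genes and 11 of 26 other immediate early genes, all with a higher heat effect in FaDu. Of these, FOSB, IER2, KLF2, KLF6, ZFP36 and RHOB passed in at most 4 of the 12 fits that each left out 1 library. EGR4 had 6.66, 6.53 and 4.47 CPM after RT and 3.37, 3.98 and 1.74 CPM after HT + RT in SAS spheroids, and its interaction was 5.84 (adjusted p = 9.5e-08). EGR3 had 97.4, 84.4 and 74.8 against 56.1, 52.2 and 43.9 CPM in SAS (interaction 4.6, adjusted p = 9.5e-08), and CYR61 1221.7, 965.8 and 916.7 against 807.0, 839.7 and 699.6 CPM (interaction 2.97, adjusted p = 3.5e-07). SAS levels were lower with heat in all 3 genes, whereas FaDu levels were higher. Other members were higher in SAS too and did not pass in the interaction: the SAS log2 fold change was 2.62 for FOS (interaction adjusted p = 0.19), 2.99 for IER5 (0.46), 2.02 for DUSP1 (0.24) and 2.29 for DUSP8 (0.48). ARC, with 1.78 in SAS, did pass (interaction 3.65, adjusted p = 3.1e-06). The median of the EGR and AP-1 list was 2.8 in FaDu and 0.76 in SAS, and that of the other immediate early genes 0.93 and 0.24. The HSP70 and HSP110 list had 0.77 in FaDu and 1.85 in SAS.

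For other genes the interaction had the opposite sign, a heat effect lower in FaDu than in SAS. COL1A1 had 1.35, 1.41 and 1.47 CPM after RT and 25.2, 24.5 and 24.1 CPM after HT + RT in SAS (interaction -3.7, adjusted p = 3.5e-07). CRYAB had 0 counts in the SAS RT libraries and 303 after HT + RT, at least 106.0-fold higher. SESN3, with 3 against 574 counts in SAS (ratio 200.9, 95% counting interval 68.4 to 977.0), had a log2 fold change of 0.53 in FaDu. FAM83C (0 against 23 counts in SAS, at least 8.05-fold) and FOXL1 (0 against 44, at least 15.4-fold) had -0.46 and 0.58 in FaDu, and their counts were too low to be tested in SAS alone.

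**Figure D5:**
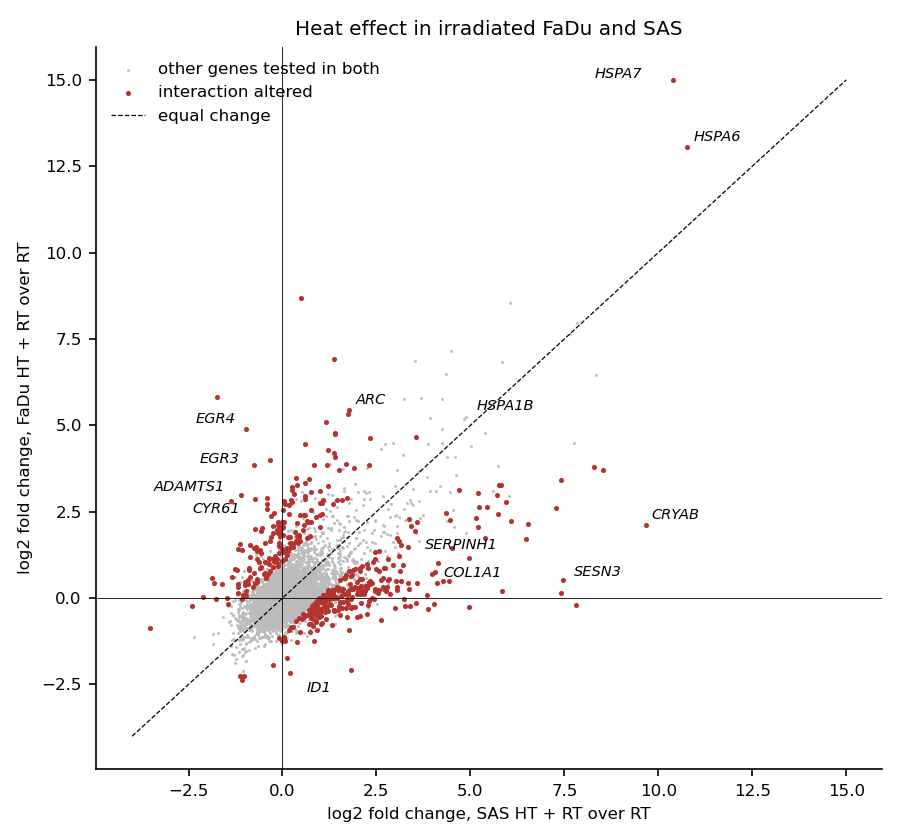
Log2 fold change of HT + RT over RT in FaDu (vertical axis) against SAS spheroids (horizontal axis), 1 point per gene tested in both, with genes altered in the interaction of heat and spheroid type in red and a line of equal change. EGR4, EGR3 and CYR61 lie above 0 in FaDu and below 0 in SAS, and CRYAB and SESN3 lie far to the right, at fitted values that depend on the prior count.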

How the data were processed

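RNA-Seq read counts per gene, as deposited by the authors without normalization, were used for FaDu RT and HT + RT libraries, joined by Ensembl identifier, and for the other groups named. The authors' notes name bcl2fastq and DESeq2. Aligner, counting program, strand setting and annotation are not given in the sources used here. The submitters' label gives a mouse build, whereas the identifiers are human. Of 57500 genes, 56898 were found in GENCODE 29, which gave names, types and neighbors, and 602 (0.0217% of counts) were not.

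Counts were tested in R 4.3.3 with edgeR 4.0.16: TMM normalization, filterByExpr with a minimum count of 10, the quasi-likelihood test and Benjamini-Hochberg adjustment over all genes tested. A gene was altered at an adjusted p under 0.05 with an absolute log2 fold change over 1. Each comparison used only the libraries of its groups (3 each). For standard errors, the absolute log2 fold change was divided by the root of the F statistic. A fold against a group without counts was computed against a floor of 3 counts over the group, and one against 1 to 3 counts is a ratio with its 95% counting interval. Tests were also tried on simulated data, which are not reported. Promoters (RefSeq, GRCh38.p14) were matched by symbol, with the first listed start.

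Total counts of the 6 libraries ranged from 15203484 to 29452514. The members and the 20 gene lists were chosen with earlier results of these data known. Genes were named by this rule: the 12 largest rises and 12 largest falls among altered genes whose groups did not overlap and whose average log2 CPM was 1 or more, the 4 tested members of each list with the largest absolute log2 fold change, HSPA7 beside HSPA6, the 5 highest and 5 lowest altered genes of each interaction, and markers. Some genes that met it are not reported here. Other list members, host genes and genes with motifs were named after their values were seen. Alternatives were DESeq2 1.42.0, RLE size factors, no filter, 10 counts in every library, adjusted p alone, glmTreat, the replicate number as a block, 1 fit of the 4 FaDu groups, leaving the 20 most abundant genes out of the library size, and leaving out each library in turn. Thinning to the smallest total count and using replicates 2 and 3 alone were chosen after seeing the data.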

Additional observations from a re-analysis of the deposited data

Results flagged for a closer look

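The effect of heat in irradiated spheroids differed between FaDu and SAS for 32 genes named by rule and for 28 other members of the gene lists, each by edgeR's test of the interaction of heat with spheroid type. The doses, 7 and 10 Gy, differed as well, so line and dose cannot be told apart. Values are log2 differences, FaDu minus SAS, with adjusted p in parentheses.

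Among immediate early, feedback and stress genes the heat effect was higher in FaDu for EGR4 (5.84, 9.5e-08), EGR3 (4.6, 9.5e-08), ADAMTS1 (4.08, 6.4e-05), ARC (3.65, 3.1e-06), CYR61 (2.97, 3.5e-07), IL6 (2.66, 0.0016), DUSP2 (2.2, 0.00032), ATF3 (1.84, 0.0046), GADD45B (1.76, 0.00018), DUSP5 (1.36, 0.0088), HES1 (1.19, 0.0075) and MAFF (1.18, 0.021). It was also higher for AC010271.1 (5.72, 0.011), HSPA7 (4.54, 0.0017) and HSPA6 (2.27, 0.00058). The HSPA7 value was 7.12 without FaDu RT replicate 3.

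A lower heat effect in FaDu was found for the chaperone genes HSPA4L (-1.82, 0.00035) and HSPA4 (-1.17, 2.5e-07), which were not altered in FaDu, and for CRYAB (-7.7, 0.00069), HSPB8 (-2.52, 0.0075), SERPINH1 (-1.58, 1e-06) and DNAJB4 (-1.57, 0.0012), which rose in FaDu too. BAMBI (-3.36, 0.018), BMP4 (-2.21, 0.013), CLK1 (-1.39, 0.00062) and CLK4 (-1.1, 0.0017) were likewise lower, as were genes with little or no count in SAS RT libraries, SESN3 (-6.97, 3.3e-06), FAM83C (-6.59, 0.00074) and FOXL1 (-6.51, 0.042), and COL1A1 (-3.7, 3.5e-07). The SESN3 value was -7.86 without SAS RT replicate 1. Fitted values against groups at 0 counts depend on the prior count.

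Genes that fell in FaDu and had a more negative effect there than in SAS were ID1 (-2.39, 3.1e-05), AC022400.7 (-1.7, 0.0076), CCDC71 (-1.31, 0.0031), RIPK4 (-1.25, 0.0036) and SNORD104 (-1.14, 0.0081).

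Besides HSPA4L and HSPA4, the other list members, chosen after their values were seen, were as follows. The heat effect was higher in FaDu for EGR2 (2.99, 2e-05), EGR1 (2.69, 0.0039), NR4A1 (1.54, 0.00052), FOSL1 (1.49, 0.0043), FOSB (1.35, 0.036), IER3 (2.26, 0.00081), KLF2 (1.84, 0.044), CSRNP1 (1.78, 0.00081), ZFP36L1 (1.46, 0.00019), IER2 (1.39, 0.039), KLF6 (1.16, 0.044), RHOB (1.15, 0.034) and ZFP36 (1.05, 0.032). The same held for CCL20 (1.76, 0.0029), CXCL2 (1.48, 0.0091), IL1A (1.45, 0.00026), NFKBIA (1.15, 0.0011), IL1B (1.01, 5.7e-06) and IFIT2 (1.27, 0.0058). It was lower in FaDu for IFI27 (-2.55, 0.0062), STAT2 (-2.14, 2.3e-07), HMOX1 (-1.91, 0.0077), OSGIN1 (-1.47, 0.0077), SESN2 (-1.22, 0.0033), NFKBIZ (-1.2, 0.0024) and CXCL1 (-1.13, 0.041). Of the overlapped or host genes named, SERTAD3 had 1.66 (0.00029) and JMJD6 -1.16 (0.00064). With 1 of the 12 libraries left out in turn, IER2 and KLF2 passed in 1 of 12 fits, ZFP36 and CXCL1 in 3, FOSB, KLF6 and RHOB in 4, IL1B in 8, and NFKBIA and JMJD6 in 11, failing without SAS RT replicate 2 and without FaDu RT replicate 1. The other list members and SERTAD3 passed in all 12. Without FaDu RT replicate 1 the value was 3.63 for EGR1, 2.66 for KLF2 and 2.03 for IER2, and without SAS RT replicate 1 it was -3.25 for IFI27.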

How the results depend on the processing

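For the heat effect in irradiated FaDu spheroids, the 857 altered genes (757 higher, 100 lower) became 819 with DESeq2, 858 with RLE size factors, 940 with the replicate number as a block, 1020 with 1 fit of the 4 FaDu groups, 858 without the 20 most abundant genes in the library size and 750 when every library was thinned to the smallest total count, chosen after seeing the data. DESeq2 shared 797 genes (93%) with the edgeR set and the block 854 (99.6%). Larger moves came from the filter and the thresholds. No filter gave 1385 altered and 1249 higher, 10 counts in every library 461 and 386 with fewer genes tested, and adjusted p alone 3064, 1490 higher and 1574 lower. Testing against the fold limit (glmTreat) gave 349, 334 higher and 15 lower. With replicates 2 and 3 alone, also chosen afterwards, 1252 were altered and 187 lower. Leaving out 1 library gave 627 to 1050 altered, 563 to 921 higher and 64 to 129 lower. The cause of these moves was not tested.

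Replicate 1 stood apart: the chi-square per gene between replicates was 16.2 and 16.1 against the others after RT and 16.9 and 20.4 after HT + RT, but 3.74 between replicates 2 and 3 in both groups. Deviations of same-numbered libraries correlated over genes by 0.16 to 0.41 (median 0.27) and those of differently numbered ones by -0.34 to 0.21 (median -0.23). Deviations were taken from the group mean, so positive correlations of same-numbered pairs push those of other pairs down. The negative median is thus not separate evidence of pairing. Both are descriptions, since genes are not independent replicates. The block moved the adjusted-p-alone count to 4924 and changed no call of a named gene in this comparison, although it took the adjusted p of COL1A1 and KRT17, among others, under 0.05 at log2 fold changes under 1.

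For the interaction of heat with irradiation (0 altered), DESeq2 altered 1 gene (1 lower), no filter 18 (2 higher, 16 lower), replicates 2 and 3 alone 5 (3 higher, 2 lower), and leaving out 1 library 0 to 1 (lower 0 to 1). The block altered 2, both lower, CYR61 (-1.07, edgeR adjusted p = 0.0068) and IER2 (-1.51, edgeR adjusted p = 0.02), named after their values were seen.

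For the interaction with spheroid type (583 altered), no filter gave 772 (351 higher, 421 lower), 10 counts in every library 336 altered (147 higher, 189 lower), adjusted p alone 1318 (424 higher, 894 lower) and glmTreat 129 (45 higher, 84 lower). It was 479 to 619 without 1 library. In SAS spheroids the heat count was 959 to 1085 and in unirradiated FaDu spheroids 612 to 964.

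Of 117 tested genes named by rule, 69 were altered, and none of these 69 reversed direction. The rule picked large changes in these same data, which favors keeping the call under other settings. Some genes that were not altered changed sign when 1 library was left out. KRT6A, for example, had 0.21, and -0.03 without HT + RT replicate 1. All 69 passed with DESeq2, the block, RLE, no filter, 1 fit, the 20 genes left out, thinning and replicates 2 and 3 alone. All 50 tested passed with 10 counts in every library. With glmTreat, 64 passed, without LFNG, ST7-AS1, HSPB9, HES1 and NRARP. Leaving out HT + RT replicate 3 removed HSPB9, and leaving out RT replicate 1 added PMAIP1. Adjusted p alone added 21. That filter leaves untested every gene under 10 counts in any library, also induced ones near 0 after RT such as HSPA7 and CACNA1G. The fit of limma to the deposited normalized values was not run, since RT and HT + RT lie in tables normalized separately.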
